A study of Mus musculus with 20 samples.

Results

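Serpina3n and its closest relatives form a cluster of serine protease inhibitor genes on mouse chromosome 12, and 7 of them are described here: Serpina3n, Serpina3m, Serpina3c, Serpina3g, Serpina3f, Serpina3h and Serpina3i. They are 7 of the 55291 gene symbols in the count table. They were chosen by name, with Serpina3n first because its counts scaled to library size (CPM) were high in APOE4 and mixed among the APOE2 mice. The levels of all 7 are therefore given as a description, with no test. Tests are given only for genes outside the 7.

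RNA was sequenced from the frozen left hemi-brain of 20 female C57bl/6 mice at 18 months of age, 5 in each of 4 groups. APOE2, APOE3 and APOE4 mice are homozygous for that human allele, which replaces mouse Apoe under the mouse promoter in every tissue that uses it, so no group carries the mouse gene intact. A further group is labelled APOE4D, its genotype label reads APOE4, and the labels and the study's methods do not explain the D. A whole hemi-brain mixes all brain cell types, and fewer cells of a type cannot be told apart from less RNA per cell.

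Serpins are suicide inhibitors: the protease cuts a loop of the serpin, the serpin folds around it, and both are lost. Human SERPINA3, also called alpha-1-antichymotrypsin, is a single gene induced in the liver during the acute phase response, whereas the mouse carries a row of duplicated relatives. Serpina3n is secreted, inhibits cathepsin G and granzyme B, and in the mouse brain is known as a marker of reactive astrocytes and of oligodendrocytes in disease models. Inflammatory signals through STAT3 and glucocorticoid hormone are known inducers of genes of this family.

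On GRCm38 the 7 genes span 267.4 kb, from 104146907 to 104414334. Serpina3c lies first, at 104146907 to 104153929, followed by Serpina3f (104214544 to 104221129), Serpina3g (104236147 to 104241939), Serpina3h (104247896 to 104254405, annotated as a transcribed pseudogene) and Serpina3i (104263045 to 104269509). Serpina3m (104387157 to 104394259) and Serpina3n (104406646 to 104414334) lie last and next to each other. Promoter windows of 250 bases before and 50 after an annotated start were matched in RefSeq (GRCm38.p6) for 5 of the 7, namely Serpina3n, Serpina3c, Serpina3g, Serpina3f and Serpina3i. That start is the edge of the gene span above for Serpina3g and Serpina3f, but lies inside the span for Serpina3n, Serpina3c and Serpina3i.

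The windows of Serpina3n, Serpina3c and Serpina3g are shown because the first pair is the closest in sequence and was high in the same groups, while Serpina3g was not. Serpina3n lies on the plus strand (chr12:104406458-104406757), Serpina3c on the minus strand (chr12:104153823-104154122) and Serpina3g on the plus strand (chr12:104235897-104236196), each written 5′ to 3′ along its own gene. Capitals mark matches, on either strand, to AGAACA (the core of glucocorticoid response elements), to TTCNNNGAA (the STAT motif) and to CAGAGCACAGCTT, the longest run found in all 5 windows. No marked stretches overlap each other.
Serpina3n: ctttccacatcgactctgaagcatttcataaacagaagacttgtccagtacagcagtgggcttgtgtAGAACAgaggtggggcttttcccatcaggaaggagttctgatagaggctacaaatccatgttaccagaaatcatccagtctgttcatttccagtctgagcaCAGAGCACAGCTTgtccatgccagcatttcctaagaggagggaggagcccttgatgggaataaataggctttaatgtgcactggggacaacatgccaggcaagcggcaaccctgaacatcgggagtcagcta
Serpina3c: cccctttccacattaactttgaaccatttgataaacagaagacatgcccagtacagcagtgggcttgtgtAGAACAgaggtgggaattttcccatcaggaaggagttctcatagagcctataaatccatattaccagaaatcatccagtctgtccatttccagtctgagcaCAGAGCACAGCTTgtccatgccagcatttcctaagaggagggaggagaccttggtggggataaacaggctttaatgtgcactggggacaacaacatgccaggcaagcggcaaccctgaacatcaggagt
Serpina3g: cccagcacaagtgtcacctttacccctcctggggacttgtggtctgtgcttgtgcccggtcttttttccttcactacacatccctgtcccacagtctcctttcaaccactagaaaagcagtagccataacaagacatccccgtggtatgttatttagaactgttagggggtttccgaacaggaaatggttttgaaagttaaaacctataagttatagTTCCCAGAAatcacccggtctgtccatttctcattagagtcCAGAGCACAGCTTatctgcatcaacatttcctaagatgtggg

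The windows of Serpina3n and Serpina3c were identical at 275 of 297 aligned positions (92.6%), against 64.5% for Serpina3n and Serpina3f, 67.0% for Serpina3n and Serpina3i and 66.2% for Serpina3n and Serpina3g. The run CAGAGCACAGCTT occurred in 7 of all 32851 RefSeq windows (0.0213%), of which 6 belonged to these 5 genes and 1 to Olfr374, an olfactory receptor gene. It began 82 bases before the start in Serpina3n and 79 before it in Serpina3c, but 9 bases after it in Serpina3g, whose annotated start lies further upstream. The starts used for Serpina3n and Serpina3c lie inside their gene spans, so these distances depend on which start is used. AGAACA began 183 bases before the start in Serpina3n and 180 before it in Serpina3c. It was also in the windows of Serpina3f and Serpina3i, and in 19% of all windows. TTCNNNGAA occurred in the windows of Serpina3g, Serpina3f and Serpina3i and in 8.3% of all windows, and these letters are not in the windows of Serpina3n and Serpina3c. TATAAA, the letters of the TATA box, lay 132 bases before the start in Serpina3c. In Serpina3f it lay 186 bases before the start, on the opposite strand. It was in 13.6% of all windows.

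The libraries held 32404258 to 51960932 reads in genes. Reads were assigned to mouse Apoe at 33.8 to 46.8 CPM in all 20 libraries, so the human alleles cannot be checked from these counts. The library of APOE3 mouse F61N held 48 reads of Xist, the RNA of the inactive X chromosome, against 12151 to 24959 in the other 19, although it is labelled female. The library of APOE2 mouse FH111 stood apart from its group: over 190 genes with at least a 2-fold difference between APOE2 and APOE3, chosen without it, its median position was 0.63 on a scale where APOE3 is 0 and the other APOE2 mice are 1. The same position, computed likewise, was 1 to 1.1 for the other 4 APOE2 mice. The ratios of Serpina3n to APOE3 and counts of called genes are also given without these 2 libraries, but not every result below is.

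Serpina3n carried 98.3% of the reads of the 7 genes, 66878 in all. In APOE3 it was at 26.5 CPM in mouse F10N, 33.4 in F37N, 22.8 in F39N, 21.1 in F61N and 29.7 in F64M. In APOE4 it was at 129.1 CPM in F58M, 133.5 in F78N, 132.9 in F95K, 123.7 in FH66 and 131.8 in FH78. Every APOE4 mouse was thus more than 3 times as high as the highest APOE3 mouse, and the 5 APOE4 values were close together. In APOE4D it was at 129.4 CPM in F12M, 115.4 in F19M, 130.3 in FH51, 135.5 in FH68 and 134.1 in FH85. The APOE4D values overlapped the APOE4 range, with F19M below it and FH68 and FH85 just above it.

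In APOE2 the gene was at 84.4 CPM in F35J, 94.2 in F74M and 82.9 in FH111, and at 27.3 in FH124 and 26.1 in F42N. The APOE2 mice therefore had no common level. F35J, F74M and FH111 lay between APOE3 and APOE4 without touching either, and FH124 and F42N lay inside the APOE3 range. FH111, which was intermediate in many other genes, was here beside F35J and F74M, and FH124 and F42N, which were typical APOE2 mice over those other genes, were here beside APOE3.

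**Figure D1:**
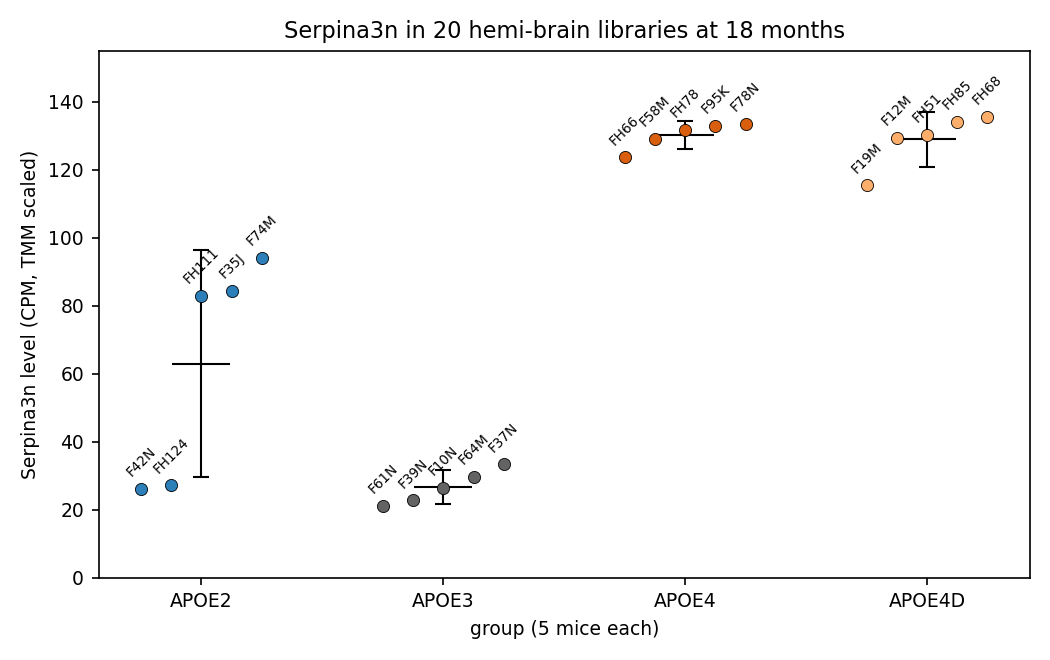
Serpina3n level in CPM (vertical axis) in the 5 libraries of each group (points, with mouse IDs). The long bar is the group mean and the whiskers its SD. APOE3 lies at 21.1 to 33.4 CPM, APOE4 at 123.7 to 133.5 and APOE4D at 115.4 to 135.5, and the APOE2 mice fall at 82.9 to 94.2 or at 26.1 to 27.3.

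In order of mean level, Serpina3n was at 130.2 ± 4.02 CPM in APOE4, 128.9 ± 7.97 in APOE4D, 63.0 ± 33.4 in APOE2 and 26.7 ± 5.02 in APOE3 (SD, n = 5 each). The coefficient of variation was 3.09% in APOE4, 6.18% in APOE4D, 18.8% in APOE3 and 53.1% in APOE2. The ratio of mean CPM to APOE3 was 4.88 for APOE4 (log2 2.29, SE 0.12) and 4.83 for APOE4D (log2 2.27, SE 0.13), with no overlap between groups. For APOE2 it was 2.36 (log2 1.24, SE 0.44), with overlap, and that mean describes none of the 5 mice. The neighbours APOE4 and APOE4D in this order did not differ beyond their spread (log2 -0.01, SE 0.05). Without F61N and FH111 the log2 ratios to APOE3 were 2.21 for APOE4, 2.20 for APOE4D and 1.05 for APOE2. The ratios of APOE4 and APOE4D share the same 5 APOE3 mice, so they are not separate evidence.

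The other 6 genes were rare, with 46 to 476 reads each over the 20 libraries. Per kilobase of transcript, the mean level in APOE4 was 57.8 CPM for Serpina3n against 0.282 for Serpina3g, 0.158 for Serpina3m, 0.118 for Serpina3h, 0.0842 for Serpina3c, 0.0835 for Serpina3f and 0.0179 for Serpina3i. Relatives share sequence, and the reads were 50 bases long. Of the 50-base windows of the Serpina3m transcript (GENCODE), 9.6% were identical to a window of another gene, mostly Serpina3k, and the share was 6.31% for Serpina3n, 2.37% for Serpina3c, 4.01% for Serpina3h, 10.8% for Serpina3f, 16.5% for Serpina3i and 57.7% for Serpina3g, there mostly with the locus Gm56487. Counting windows within 2 mismatches of another gene of the cluster, the share was 25.8% for Serpina3n, 24.7% for Serpina3m, 19.5% for Serpina3c, 34.8% for Serpina3h, 37.3% for Serpina3f, 44.7% for Serpina3i and 44.8% for Serpina3g. The sources used here do not say how reads that match several genes were counted, so low counts of these genes are uncertain.

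Serpina3m, the nearest neighbour of Serpina3n, was close to absent in APOE3, with 0 reads in F10N, F37N and F39N and 1 each in F61N and F64M. At these depths a count of 0 allows up to 0.0574 to 0.0676 CPM, for counting error only. In APOE4 it had 19 reads in F58M, 22 in F78N, 16 in F95K, 22 in FH66 and 25 in FH78, and in APOE4D 12 in F12M, 15 in F19M, 16 in FH51, 10 in FH68 and 9 in FH85. No mouse of either group came near the APOE3 counts. In APOE2 it had 12 reads in F35J and F74M, 3 in FH111 and FH124 and 0 in F42N. The reads of the group, relative to depth, were 64.6 times as many in APOE4 as in APOE3 (104 against 2 reads, exact 95% counting interval 17.4 to 540). They were 42.2 times as many in APOE4D (62 reads, 11.2 to 357). Both intervals leave out the spread between mice and are not a test.

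APOE4 mice had Serpina3m at 0.552 ± 0.0878 CPM and APOE4D mice at 0.362 ± 0.102 (SD, n = 5 each), with overlap between the mice. The ratio of reads was 0.654 for APOE4D to APOE4 (exact 95% counting interval 0.47 to 0.904, which leaves out the spread between mice). With that spread, the log2 ratio of mean CPM was -0.61 (SE 0.19), as a description. For every 1000 reads of Serpina3n there were 4.22 reads of Serpina3m in APOE4, 2.78 in APOE4D, 2.2 in APOE2 and 0.318 in APOE3. The 2 genes thus did not keep a fixed ratio of reads across groups.

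Serpina3c had 1 read in F10N and F64M, 2 in F61N and 4 in F37N and F39N of APOE3. In APOE4 it had 9 reads in F58M, 19 in F78N, 4 in F95K, 23 in FH66 and 17 in FH78, and in APOE4D 16 in F12M, 11 in F19M, 9 in FH51, 14 in FH68 and 17 in FH85. Relative to depth, neither group overlapped APOE3, and F95K came closest. The ratio of reads to APOE3 was 7.45 for APOE4 (exact 95% counting interval 4.02 to 15.1) and 7.61 for APOE4D (4.08 to 15.5). These intervals leave out the spread between mice. With that spread, the log2 ratios of mean CPM were 2.86 (SE 0.40) and 2.93 (SE 0.26), as a description. In APOE2 it had 10 reads in F35J, 19 in F74M and 20 in FH111, against 6 in FH124 and 1 in F42N. The same 3 APOE2 mice that were high in Serpina3n were thus the highest in Serpina3c.

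Serpina3n, Serpina3m and Serpina3c were the 3 members of 7 whose APOE4 mice all lay above all APOE3 mice, and the same 3 did so in APOE4D. Groups did not overlap in this direction for 5.58% of the 21022 genes tested in APOE4 and 2.77% of 21041 in APOE4D. Because the genes were chosen on these levels, nothing is read from that count. Of the 7, 6 passed the filter on low counts (above 0.1 CPM in over 40% of the libraries), and Serpina3i did not.

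Serpina3g, an intracellular serpin known from activated T cells and blood cell precursors in the mouse, was highest in APOE3. It was at 0.769 ± 0.312 CPM in APOE3, 0.585 ± 0.25 in APOE4, 0.493 ± 0.225 in APOE4D and 0.473 ± 0.178 in APOE2 (SD, n = 5 each), and each group overlapped APOE3. The ratio of reads was 0.768 for APOE4 to APOE3 (exact 95% counting interval 0.6 to 0.979) and 0.651 for APOE4D to APOE3 (0.496 to 0.847), intervals that leave out the spread between mice. With that spread, the log2 ratio of mean CPM to APOE3 was -0.39 (SE 0.40) for APOE4 and -0.64 (SE 0.36) for APOE4D, on few reads (8 to 53 per library).

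Serpina3f and Serpina3h were near 0.1 to 0.2 CPM in every group. Serpina3f had 29 reads in APOE3 and 31 to 36 in the other groups, and Serpina3h had 27 in APOE3 and 29 to 35 in the others. Their log2 ratios of mean CPM to APOE3 were 0.60 (SE 0.51) and 0.61 (SE 0.36) for APOE4 and 0.67 (SE 0.54) and 0.81 (SE 0.36) for APOE4D, with overlap throughout. Serpina3i had 8 reads in APOE4, 8 in APOE4D, 12 in APOE2 and 18 in APOE3, and no difference was detectable at this depth.

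**Figure D2:**
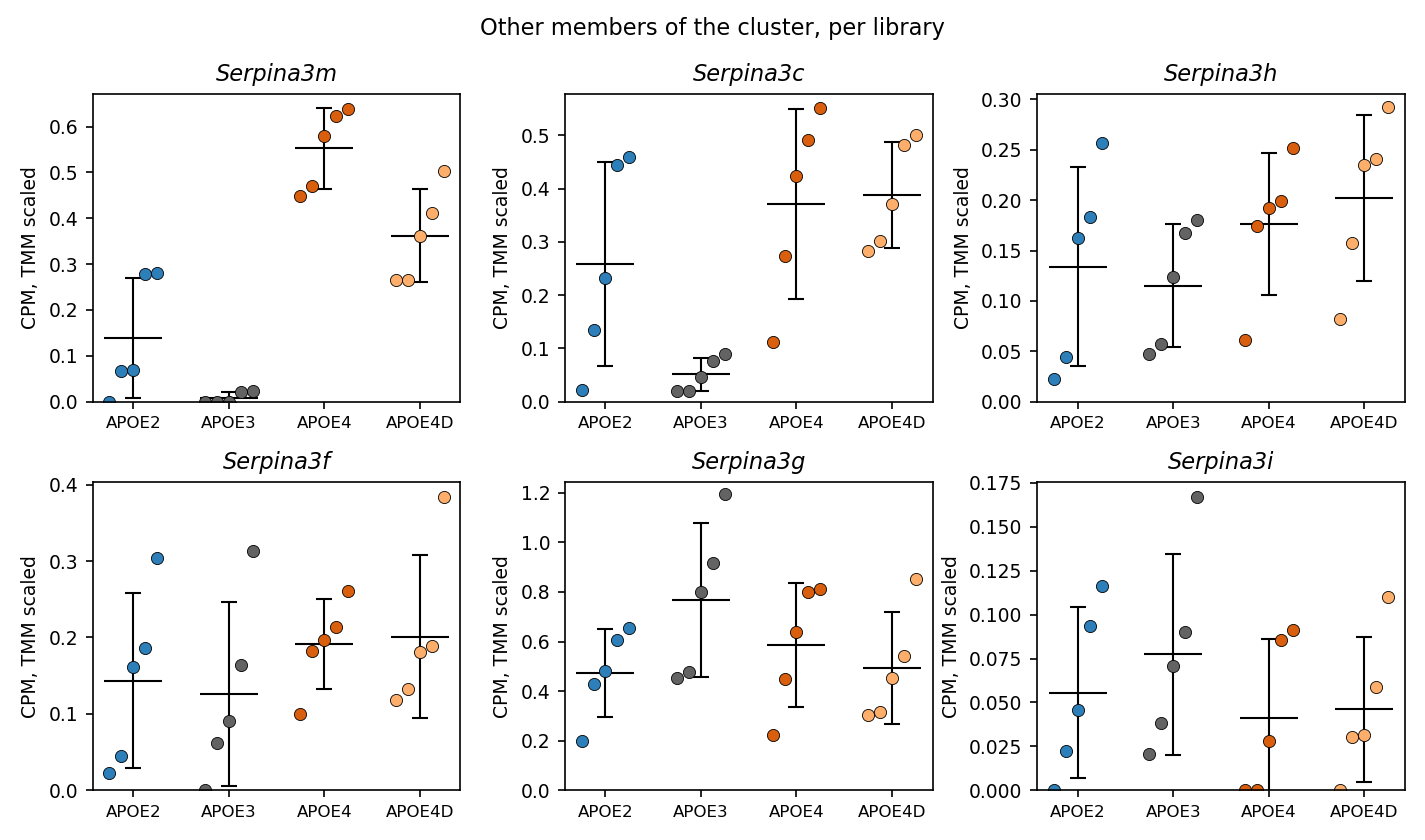
CPM (vertical axes, which differ between panels) of the 6 rare members in the 5 libraries of each group, with the group mean (bar) and SD (whiskers). All APOE4 and APOE4D points of Serpina3m and Serpina3c lie above all APOE3 points, and the groups overlap in the other 4 genes.

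Within APOE2, the order of the mice was alike across the cluster. The 6 rare genes together had 68 reads in F35J, 87 in F74M and 61 in FH111, against 32 in FH124 and 13 in F42N. F42N had the fewest reads of Serpina3m (0), Serpina3c (1), Serpina3g (9), Serpina3f (1) and Serpina3i (0), and FH124 the fewest of Serpina3h (1). The mouse F74M, highest in Serpina3n, also led in Serpina3g (28), Serpina3f (13) and Serpina3h (11). FH111 led in Serpina3c (20) and F35J in Serpina3i (5), and in Serpina3m FH111 had as few reads as FH124 (3). For the 6 rare genes together F42N was at 0.288 CPM, below the APOE3 mice (0.65 to 1.64), unlike its Serpina3n level. These orders were seen in 5 mice and on few reads, and they were not tested.

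Over the 20 libraries, Pearson's r of log2 CPM with Serpina3n was 0.94 for Serpina3m (Spearman's rho 0.75), 0.86 for Serpina3c (0.72), 0.64 for Serpina3h (0.7), 0.57 for Serpina3f (0.32), -0.08 for Serpina3g (0) and -0.11 for Serpina3i (-0.28). These values describe libraries that fall into separate high and low levels and that share depth, and 15.9% of 14006 genes ranked had an r above 0.5.

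Other cluster symbols in the table had hardly any reads: 0 for Serpina3a, Serpina3d-ps and Serpina3j, 7 for Serpina3b, 3 for Serpina3k and 1 for Serpina3l-ps. The pseudogene Serpina3e-ps had 103 reads, with 17 in APOE3, 23 in APOE2, 33 in APOE4 and 30 in APOE4D. Its log2 fold change for APOE4D against APOE3 was 1.24 (SE 0.43, adjusted p = 0.0679 by edgeR's quasi-likelihood test), and it did not pass the filter for the other comparisons with APOE3.

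The genes around the cluster were compared as well. Of 61 annotated genes within 1 Mb of either end, 21 were tested for APOE4 against APOE3 and 3 passed an adjusted p of 0.05, against 21% of all genes tested. Dicer1, the ribonuclease that cuts microRNA precursors, was higher (log2 fold change 0.15, SE 0.04, edgeR adjusted p = 0.0136). Glrx5, a mitochondrial iron-sulfur cluster protein, was lower at 36.6 ± 3.69 CPM against 48.0 ± 4.33 (log2 fold change -0.39, SE 0.06, edgeR adjusted p = 0.000188), and Asb2, a ubiquitin ligase subunit, was lower by -0.40 (SE 0.12, edgeR adjusted p = 0.0209). The log2 fold changes of the 21 ran from -0.40 to 0.41, with a median of 0.04. None came near the log2 ratio of 2.29 of Serpina3n.

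For APOE4D against APOE3, 2 of 22 neighbours passed (8.41% of all genes tested did). Prima1, the membrane anchor of acetylcholinesterase, rose by 0.35 (SE 0.09, edgeR adjusted p = 0.0158) and Glrx5 fell by 0.43 (SE 0.07, edgeR adjusted p = 0.000285). For APOE2 against APOE3, 2 of 21 passed (4.89% of all genes tested did), again Prima1 (0.35, SE 0.10, edgeR adjusted p = 0.0281) and Glrx5 (-0.42, SE 0.06, edgeR adjusted p = 0.000158). All comparisons with APOE3 share its 5 mice. Uncalled neighbours ranged more widely, from -0.64 for Scarna13 to 1.24 for Serpina3e-ps in APOE4D, and down to -1.23 (SE 0.38, edgeR adjusted p = 0.0874) in APOE2 for Ifi27l2a. Besides Serpina3e-ps, the list of serpins of the wider chromosome 12 region held 18 genes, of which only Serpina9 was tested, and it had log2 fold changes of 0.05, 0.03 and 0.05 in APOE4, APOE4D and APOE2 against APOE3.

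**Figure D3:**
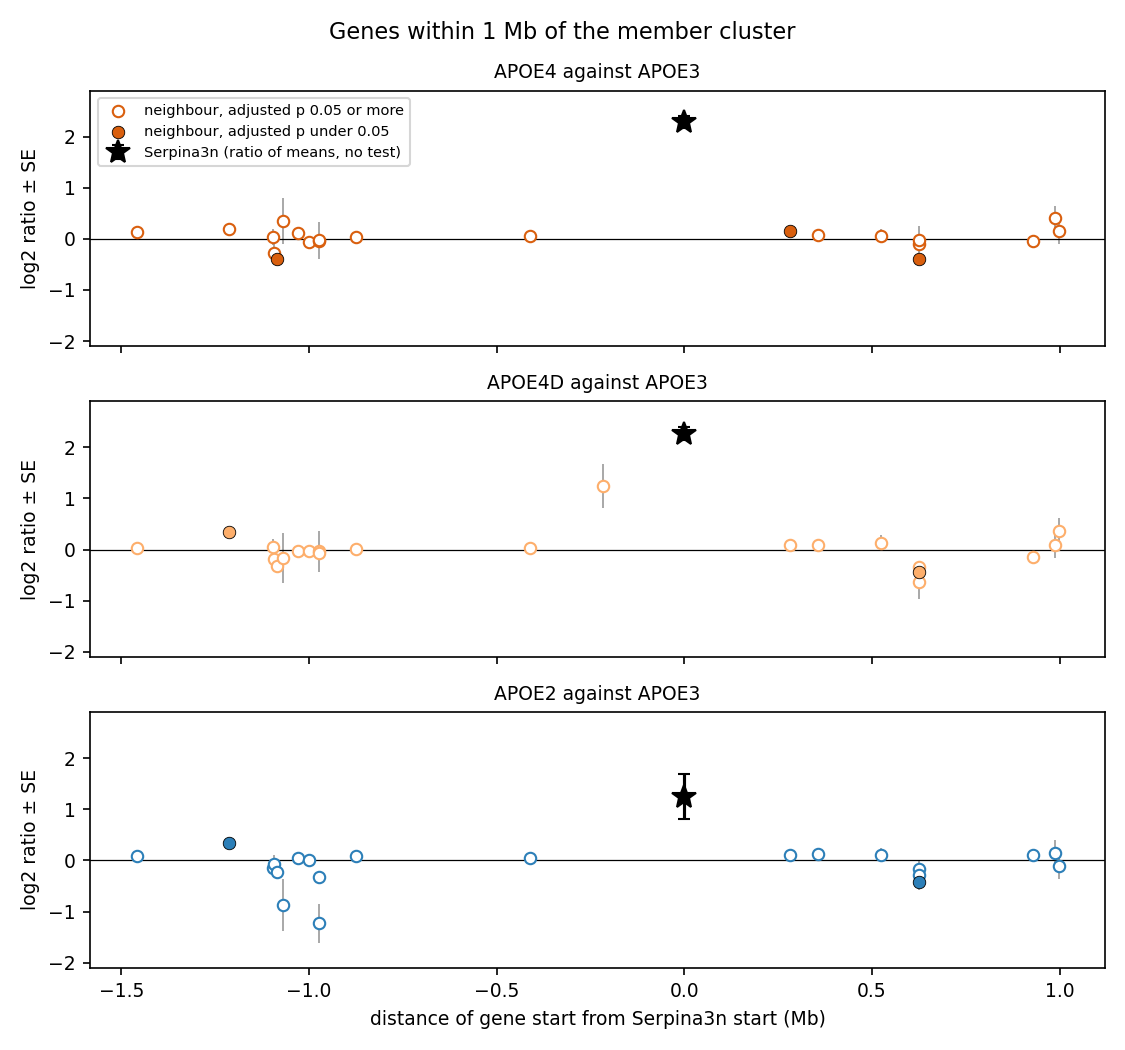
Log2 ratio with its SE (vertical axis) of the genes tested within 1 Mb of the cluster, by distance of their start from that of Serpina3n in Mb (horizontal axis). Filled circles passed an edgeR adjusted p of 0.05. The star is Serpina3n, given as a ratio of means with no test, at 2.29 in APOE4, 2.27 in APOE4D and 1.24 in APOE2, while the neighbours lie between -0.40 and 0.41, between -0.64 and 1.24, and between -1.23 and 0.35.

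APOE4D was compared with APOE4 across all genes as well. The edgeR test called 0 of 21041 genes (0%), with 2293 at an unadjusted p under 0.05, limma-voom called 0, and DESeq2 called 34. No neighbour and no gene of the lists below was called in this comparison by edgeR. The absence of calls does not show that the groups were alike. Many calls of named genes from the lists and markers below were lost when the mice of the FH ID series were left out. These were 25 of 29 in APOE4, 13 of 15 in APOE4D and 7 of 14 in APOE2. That setting also leaves fewer mice, and none of these genes reversed direction. The log2 ratio of Serpina3n to APOE3 was then 2.30, 2.20 and 1.35. Those ratios are sizes with no test and cannot be set beside lost calls.

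Reactive astrocyte genes, with which Serpina3n is usually listed, gave no call in its direction by edgeR with all mice included. Of 34 tested, 0 were higher and 3 lower in APOE4 than in APOE3 (10.8% and 10.2% of all genes tested were), 0 higher and 4 lower in APOE4D (3.92% and 4.49%), and 0 higher and 4 lower in APOE2 (1.84% and 3.05%). The list's median log2 fold change was -0.17, -0.24 and -0.17, against -0.01, 0 and 0 over all genes. At an unadjusted p under 0.05, 1, 0 and 1 were higher and 9, 12 and 9 lower, DESeq2 called 1, 0 and 1 higher, and limma-voom called none higher. By edgeR 1 gene was higher in APOE4 without F78N and 1 in APOE2 without F37N. The counts of lower genes turned on single mice. Without F10N they were 2, 0 and 4 and without F61N 6, 8 and 5, and with the mice of the FH ID series left out no gene of the list was called in APOE4.

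Psmb8, an immunoproteasome subunit, was lower in all 3 comparisons with APOE3, at 7.47 ± 1.04 CPM in APOE3 against 5.50 ± 0.373 in APOE4 (log2 fold change -0.45, SE 0.11, edgeR adjusted p = 0.00481), 5.76 ± 0.576 in APOE4D (-0.38, SE 0.10, edgeR adjusted p = 0.0217) and 4.90 ± 0.734 in APOE2 (-0.61, SE 0.11, edgeR adjusted p = 0.000865). H2-D1, a class I histocompatibility antigen, was lower in the same 3, by -0.42, -0.40 and -0.52 (SE 0.11 each, edgeR adjusted p = 0.0186, 0.0348 and 0.0175), and its call in APOE4D was lost in 10 of 18 alternative settings. In APOE2 the interferon-induced GTPases Gbp2 (-0.54, SE 0.12, edgeR adjusted p = 0.00857) and Iigp1 (-0.97, SE 0.22, edgeR adjusted p = 0.0117) were also lower. S100a10, the annexin partner, was lower in APOE4 (-0.24, SE 0.07, edgeR adjusted p = 0.0238).

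Lcn2, the secreted siderophore-binding protein lipocalin 2, was at 0.306 to 4.59 CPM in APOE3 and 0.735 to 4.86 in APOE2, against 0.261 to 0.674 in APOE4 and 0.220 to 0.362 in APOE4D. Its log2 fold change in APOE4D was -3.17 (SE 0.85, edgeR adjusted p = 0.0295), and the call was lost in 10 of 18 alternative settings. Vim, the intermediate filament vimentin, was lower in APOE4D (-0.35, SE 0.11, edgeR adjusted p = 0.0475), a call lost in 11 of 18.

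Gfap, the intermediate filament of astrocytes, was at 297 ± 31.6 CPM in APOE4D, 324 ± 28.6 in APOE4, 350 ± 32.7 in APOE3 and 374 ± 36 in APOE2 (SD, n = 5 each). C4b, a complement component that rises with age in glia, was at 62.8 ± 13.7, 68.5 ± 7.72, 77.3 ± 11.7 and 77.8 ± 9.68 CPM in the same order, and Aqp4, the astrocyte water channel, at 112 ± 5.09, 122 ± 8.81, 111 ± 10.9 and 104 ± 18.2. None of these 3 passed in any comparison. Over the 20 libraries their r with Serpina3n was -0.54 for Gfap, -0.35 for C4b and 0.10 for Aqp4. The 11 astrocyte markers summed to 3908 to 4590 CPM over the libraries, with all 4 groups overlapping. Of the 11 only Acsbg1 and Aldh1l1 were called, both lower in APOE4 (-0.18 and -0.14), where 10.2% of all genes tested were lower.

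Genes that mark oligodendrocytes in disease models gave no call in that direction either by edgeR with all mice included. Of 19 tested, 0 were higher and 5 lower in APOE4 (10.8% and 10.2% of all genes tested were). In APOE4D 0 were higher and 4 lower (3.92% and 4.49%), and in APOE2 0 and 3 (1.84% and 3.05%). The median log2 fold changes were -0.24, -0.25 and -0.10. At an unadjusted p under 0.05, 1 was higher in each comparison, DESeq2 called 1 higher in APOE4D only, and limma-voom called 0. H2-K1, another class I antigen, was lower by -0.39, -0.37 and -0.66 (SE 0.11 each, edgeR adjusted p = 0.0256, 0.0458 and 0.00362), with the call in APOE4D lost in 11 of 18 alternative settings, and B2m, their light chain, was lower in APOE2 by -0.75 (SE 0.13, edgeR adjusted p = 0.00404). Without F10N, 0 were higher and 3 lower in APOE4, and 0 were called in APOE4D. Without F61N, edgeR called 1 higher and 7 lower in APOE4, and 1 higher and 6 lower in APOE4D.

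**Figure D4:**
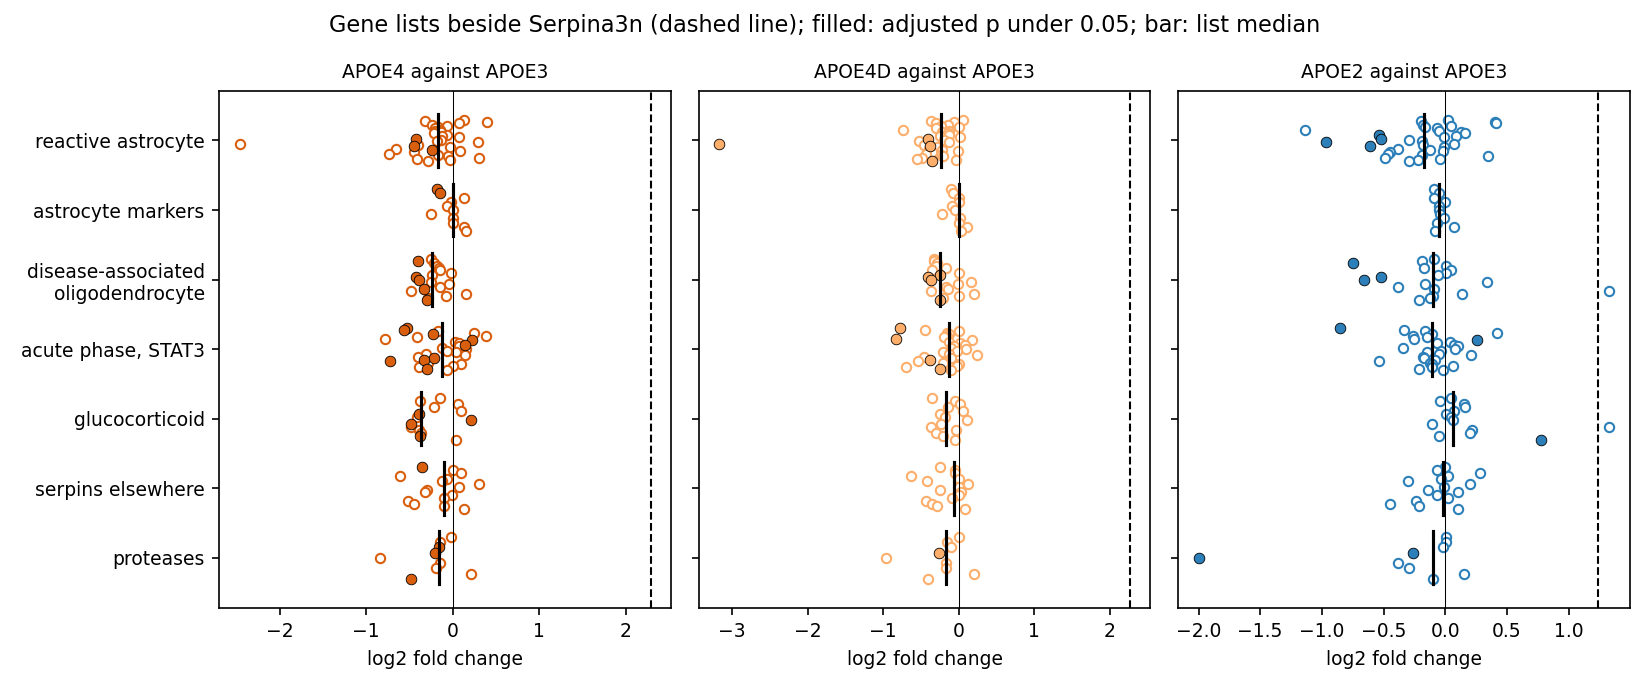
Log2 fold change of each tested gene (points) of 7 gene lists in APOE4, APOE4D and APOE2 against APOE3, with filled points past an edgeR adjusted p of 0.05 and a bar at the list median. The dashed line is the log2 ratio of Serpina3n (2.29, 2.27 and 1.24); in APOE4 and APOE4D every listed gene lies to its left.

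Of the receptors, kinases and transcription factors of the acute phase response, 29 were tested. In APOE4 2 were higher and 7 lower (10.8% and 10.2% of all genes tested were). In APOE4D 0 were higher and 4 lower (3.92% and 4.49%), and in APOE2 1 and 1 (1.84% and 3.05%). The median log2 fold changes of the 29 were -0.12, -0.13 and -0.11. Stat3, the transcription factor of the interleukin 6 pathway, stayed at 50.9 to 53.6 CPM in the 4 group means, and Socs3, its feedback inhibitor, was at 4.79 ± 0.64 CPM in APOE3, 4.41 ± 0.392 in APOE2, 4.17 ± 0.386 in APOE4D and 3.98 ± 0.726 in APOE4, with no call for either. Il1rap, the interleukin 1 coreceptor, rose by 0.23 in APOE4 and 0.26 in APOE2 (SE 0.06 each, edgeR adjusted p = 0.00821 and 0.012). Cebpb, a transcription factor of the acute phase, was lower by -0.78 in APOE4D and -0.85 in APOE2 (SE 0.17 and 0.18, edgeR adjusted p = 0.00515 and 0.0102).

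In APOE4, Cntfr (the receptor of ciliary neurotrophic factor), Rela (a subunit of NF-kappa-B) and Tnfrsf1a (a tumour necrosis factor receptor) were lower by -0.23, -0.22 and -0.29 (SE 0.05, 0.06 and 0.08, edgeR adjusted p = 0.00135, 0.00625 and 0.0112). In APOE4D, Relb was lower by -0.38 (SE 0.10) and Il1r1 by -0.83 (SE 0.24), with edgeR adjusted p = 0.0155 and 0.0368, and the call of Il1r1 was lost in 10 of 18 alternative settings. Without F10N, 2 genes of this list were higher and 2 lower in APOE4, and 0 and 1 in APOE4D. Without F61N, 3 were higher and 6 lower in APOE4, and 2 and 5 in APOE4D.

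Of 14 genes of the glucocorticoid receptor and its targets, 1 was higher and 3 lower in APOE4 (10.8% and 10.2% of all genes tested were). In APOE4D 0 were called by edgeR (8.41% of all genes tested were), DESeq2 or limma-voom. There 1 was lower at an unadjusted p under 0.05, and 1 was called higher without F61N. In APOE2 1 was higher and 0 lower (1.84% and 3.05%). The median log2 fold changes were -0.37, -0.16 and 0.07. Nr3c1, the receptor, rose by 0.21 in APOE4 (SE 0.06, edgeR adjusted p = 0.0145). Its targets Per1, Tsc22d3 and Mt1 were lower there by -0.48, -0.38 and -0.39 (SE 0.12, 0.11 and 0.12, edgeR adjusted p = 0.0111, 0.0226 and 0.0414), and the call of Mt1 was lost in 10 of 18 alternative settings. Zbtb16 was higher in APOE2, at 32.5 ± 8.75 against 18.97 ± 4.12 CPM (log2 fold change 0.78, SE 0.17, edgeR adjusted p = 0.0226), a call lost in 5 of 18. The APOE2 mouse F74M stood apart in these genes, with a list sum of 1453 CPM against 962 to 1124 in the other 4, Zbtb16 at 46.6, Plin4 at 43.9 against 2.89 to 8.45, Sgk1 at 158 against 47.3 to 75.1 and Fkbp5 at 76.4 against 36.2 to 40.8. F74M was also the APOE2 mouse highest in Serpina3n, but F35J and FH111, which were high in Serpina3n too, had list sums of 1124 and 962 CPM, and the part of these genes in the Serpina3n levels was not tested. Without F74M the log2 fold change of Zbtb16 was 0.62 (edgeR adjusted p = 0.0261).

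Of 9 proteases tested that are reported targets of serpin A3 or their kin, 0 were higher and 3, 1 and 2 lower by edgeR in APOE4, APOE4D and APOE2. Over all genes tested, 10.8%, 3.92% and 1.84% were higher and 10.2%, 4.49% and 3.05% lower. Likewise 0 of the 9 were higher at an unadjusted p under 0.05 and by DESeq2 and limma-voom. With F61N and FH111 left out, 0 were higher and 4 lower in APOE4, and the same in APOE2. Ctss, cathepsin S of microglia, was lower in all 3, by -0.20, -0.26 and -0.26 (SE 0.07, 0.06 and 0.07, edgeR adjusted p = 0.0373, 0.0116 and 0.0205). Ctsl, cathepsin L, and Prtn3, proteinase 3, were lower in APOE4 by -0.16 and -0.48 (SE 0.04 and 0.15, edgeR adjusted p = 0.00439 and 0.0205). Gzma, granzyme A, was lower in APOE2 at 0.0550 ± 0.0537 against 0.226 ± 0.111 CPM (edgeR adjusted p = 0.0199). It had only 0 to 6 reads per APOE2 library and 4 to 17 per APOE3 library, and the call was lost in 6 of 16 alternative settings. Of 16 tested serpins from other chromosomes, 1 was called in APOE4, 0 in APOE4D and 0 in APOE2 (21%, 8.41% and 4.89% of all genes tested were). It was Agt, angiotensinogen, lower in APOE4 (-0.35, SE 0.10, edgeR adjusted p = 0.0273), a call lost in 10 of 18 alternative settings. With F61N and FH111 left out, 1 of these serpins was higher and 2 lower in APOE4, and 1 higher and 0 lower in APOE2.

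Blood and liver were checked because both carry serpins. Alb, albumin, had 0 to 5 reads per library. The 5 blood markers, chiefly globins, summed to 72.9 to 121 CPM in APOE4 and 149 to 401 in APOE3. All 5 were lower in APOE4 (10.2% of all genes tested were). In APOE4D they summed to 73.95 to 219 CPM, which overlapped APOE3. There 0 of 5 were called by edgeR (8.41% of all genes tested were), and 5 were lower at an unadjusted p under 0.05. In APOE2 they summed to 85.5 to 172 CPM, with 1 called lower (3.05% of all genes tested were). Their part in the Serpina3n levels was not tested.

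The genes whose levels over the 20 libraries were most like Serpina3n were Esyt2 (r = 0.92), Anapc1 (0.90), Tspyl4 (0.90), Vps50 (0.89), Fam168a (0.88), Ptprn2 (0.88), Zscan26 (0.88), Gm16638 (0.87), D130043K22Rik (0.87) and Tanc2 (0.87), of 14006 genes whose log2 CPM averaged 1 or more. Esyt2, an extended synaptotagmin that tethers the endoplasmic reticulum to the plasma membrane, and Ptprn2, a dense-core vesicle protein, also lie on chromosome 12, at 116279283 to 116390935 and 116485695 to 117278167. The most opposite were Foxo6 (-0.93), Rnf5 (-0.92), Rbm8a (-0.91), R3hdm4 (-0.89) and Ndufb6 (-0.89). All these points share library and depth and fall into separate levels of Serpina3n, so the values describe the ordering only.

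The changes of these genes were small beside that of Serpina3n. Esyt2 was at 45.5 ± 3.87 CPM in APOE3, 53.7 ± 5.3 in APOE2, 64.8 ± 1.84 in APOE4D and 68.3 ± 3.47 in APOE4, and Foxo6, a forkhead transcription factor of neurons, at 14.96 ± 1.29, 12.8 ± 1.76, 9.87 ± 0.591 and 10.4 ± 0.828 in the same order (SD, n = 5 each). Without the APOE2 libraries r was 0.93 for Esyt2 and -0.95 for Foxo6.

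The deviations from the group means pick out genes that followed the split within APOE2. The highest r of deviations were those of 4833420G17Rik (0.87), Ica1 (0.83), Spink8 (0.82), Egf (0.80), Pon2 (0.79), Gm16638 (0.74), 3000002C10Rik (0.73), Abca8a (0.71), Zfp131 (0.70) and Tuft1 (0.70), none of them on chromosome 12. Several lie near each other. 4833420G17Rik and Zfp131 start at 119462015 and 119765186 on chromosome 13, and Spink8 and 3000002C10Rik at 109812203 and 109830153 on chromosome 9. Ica1 and Pon2 start at 8630527 and 5264620 on chromosome 6. In APOE2, 4833420G17Rik was at 46.8 CPM in F35J, 33.6 in F74M, 30.1 in FH111, 14.8 in FH124 and 16.2 in F42N. Its other group means were 44.1 in APOE3, 44.2 in APOE4 and 44.8 in APOE4D, so it was FH124 and F42N that stood apart there, whereas in Serpina3n these were the mice at the APOE3 level.

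Ica1, a secretory granule protein, was at 39.5 CPM in F35J, 47.3 in F74M and 38.8 in FH111, against 29.2 in FH124 and 29.6 in F42N, and Pon2, an intracellular lactonase, at 51.6, 58.3 and 51.8 against 43.1 and 43.3. Both lie on chromosome 6. For these, FH124 and F42N were at or near the APOE4 means (31.4 and 39.5 CPM), and the other 3 lay between those and the APOE3 means (49.0 and 66.0). 4833420G17Rik, Ica1 and Pon2 were picked because their deviations followed those of Serpina3n. That FH124 and F42N were the low APOE2 mice in each of them comes from that choice. These mice matched APOE3 in Serpina3n and came closer to APOE4 in Ica1 and Pon2.

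**Figure D5:**
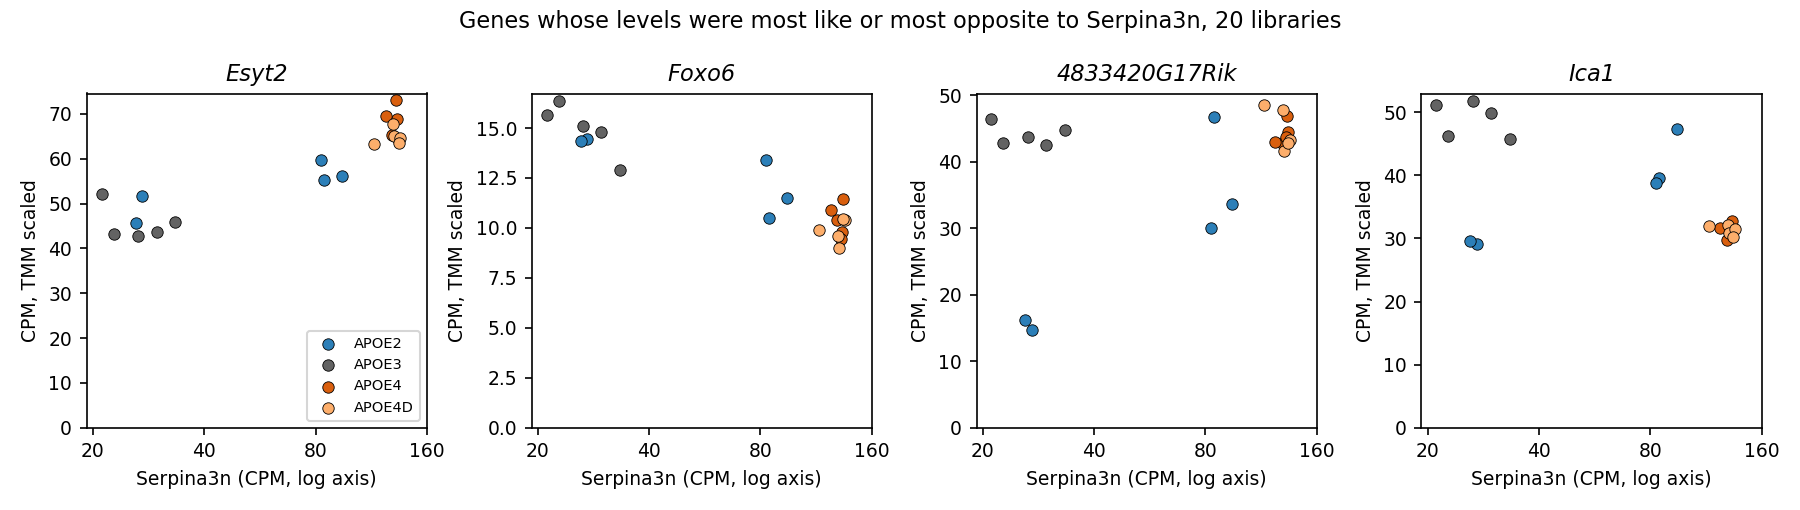
CPM of 4 genes (vertical axes) against that of Serpina3n (horizontal log axis) in the 20 libraries, coloured by group. Esyt2 rises with Serpina3n across groups, and Foxo6 falls as Serpina3n rises. 4833420G17Rik and Ica1 were picked for following the deviations of Serpina3n from the group means. In them the APOE2 mice FH124 and F42N (14.8 and 16.2 CPM, 29.2 and 29.6 CPM) lie below the other APOE2 mice.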

How the data were processed

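RNA from left hemi-brains of 20 mice (5 each of APOE2, APOE3, APOE4 and APOE4D) was sequenced as single reads of 50 bases, and libraries were assigned by the genotype in their labels. The authors deposited raw read counts for each gene symbol, made per the submitters' processing notes with STAR 2.7.0 and featureCounts on GRCm38 (mm10). Whether strand was used is not stated in these sources. The authors' normalized counts and comparison tables were not used.

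The tests used edgeR 4.0.16 in R 4.3.3 (quasi-likelihood test, robust, TMM scaling) on genes with over 0.1 CPM (counts scaled to library size) in more than 40% of the libraries fitted. The fit of APOE4 and APOE2 against APOE3 used 15 libraries, and APOE4D was fitted with all 20. Calls had a Benjamini-Hochberg adjusted p under 0.05 over all genes tested. log2 CPM used a prior count of 2. The steps were tested on simulated data. DESeq2 1.42.0 and limma 3.58.1, other filters and scalings, and leaving out mice were alternatives, of which leaving out F61N and FH111 together was chosen after seeing the data. The p-values weigh a difference against the spread between mice, estimated over all libraries of a fit, with 5 mice per group.

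The members and lists were chosen with earlier results of these data known. Named genes were the 7 members, the 10 most like and 5 most opposite to Serpina3n over 20 libraries, the 10 most like in deviations from group means, neighbours within 1 Mb, up to 4 genes per list and comparison with the smallest p among those called, and Gfap, Aqp4, C4b, Stat3 and Socs3. Alb, Xist and Apoe were added as checks. Of 55291 symbols, 38990 were matched to RefSeq (GRCm38.p6). Shared 50-base windows came from GENCODE transcripts of GRCm39, and windows were aligned with Biopython 1.88. Counting intervals are exact 95% intervals of the ratio of reads and cover counting error only.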

Additional observations from a re-analysis of the deposited data

Results flagged for a closer look

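Serpina3f in the APOE4D mouse F19M was at 0.384 CPM (14 reads), while the other 4 APOE4D mice lay between 0.118 and 0.189 CPM. Its gap to the nearest mouse was 0.732 of the range of the 5. This mouse is given because it lay far from the others of its group, as a description with no test, on a gene with few reads.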

How the results depend on the processing

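The log2 ratios of Serpina3n kept their direction under every scaling and left-out mouse, apart from that of APOE4D to APOE4, which lay near 0 throughout (-0.03 to 0.02 with single mice left out, and -0.11 without the mice of the FH ID series). With single mice left out they ran from 2.21 to 2.38 for APOE4, 2.20 to 2.37 for APOE4D and 1.05 to 1.43 for APOE2 against APOE3. Counts of called genes, a different measure that also depends on the number of mice, moved as follows. APOE4 against APOE3 gave 1403 genes without the FH mice, 5792 without F61N and FH111, and 3028 (without F39N) to 5739 (without F61N) with single mice left out. APOE4D against APOE3 gave 464 without the FH mice, 3406 without F61N and FH111, and 1022 (without F12M) to 3338 (without F61N). APOE2 against APOE3 gave 637 with only the 2 groups fitted, 2032 without F61N and FH111, and 569 (without F10N) to 2533 (without F61N). APOE4D against APOE4 gave 10 with no filter, 34 with DESeq2, 210 with only the 2 groups fitted, and 0 to 1 with single mice left out. The FH mice are 2 of APOE2, 2 of APOE4 and 3 of APOE4D, so that setting also has fewer mice, and the cause of the other changes was not tested. Of the values of named list genes under the alternatives, 815 kept their call, 227 lost it and none reversed. By Spearman's rho the likeness to Serpina3n was 0.80 for Esyt2, 0.76 for Fam168a, 0.74 for Ptprn2, 0.76 for Zscan26 and -0.83 for Foxo6. No paired analysis was possible because the groups hold different mice and the labels name no pairs between them. Depth limits the 6 rare members, at 0 to 53 reads per library. The counting intervals of the ratios of Serpina3f, Serpina3h and Serpina3i to APOE3 hold 1, apart from that of Serpina3h in APOE4D (1.04 to 3.03). Such intervals leave out the spread between mice.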

Other observations

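Markers of other brain cell types held a few called genes beside Serpina3n, by the edgeR test. In APOE4 1 of 4 choroid plexus and 1 of 8 oligodendrocyte markers were higher, and 1 of 7 microglia and 1 of 6 endothelial markers lower. Of 6 neuron markers, 1 was higher and 1 lower in each comparison with APOE3. In APOE4D 1 of 4 choroid plexus markers was higher and 1 of 7 microglia markers lower. Over all genes tested, 10.8%, 3.92% and 1.84% were higher and 10.2%, 4.49% and 3.05% lower in APOE4, APOE4D and APOE2. Tmem72, a choroid plexus gene, was at 9.24 ± 1.64 CPM in APOE4, 9.27 ± 1.14 in APOE4D and 4.83 ± 0.595 in APOE3 (SD, n = 5 each), a log2 fold change of 0.93 (SE 0.13, edgeR adjusted p = 5.71e-05) and of 0.94 (SE 0.13, edgeR adjusted p = 2.95e-05). C1qa, a complement component of microglia, was lower in APOE4 by -0.35 and in APOE4D by -0.43 (SE 0.09 each, edgeR adjusted p = 0.0112 and 0.00548). Over the 4 choroid plexus markers the median log2 fold change was 0.06 in APOE4 and 0.04 in APOE4D. Over the 7 microglia markers it was -0.02 and -0.05. Ermn, an oligodendrocyte gene, was higher in APOE4 (0.31, SE 0.05, edgeR adjusted p = 0.000322). Ly6c1, an endothelial gene, was lower there (-0.54, SE 0.16, edgeR adjusted p = 0.0294), a call lost in 7 of 18 alternative settings. Gad2, an enzyme of inhibitory neurons, was higher by 0.20 in APOE4, 0.14 in APOE4D and 0.21 in APOE2, and Slc17a7, a glutamate transporter of excitatory neurons, was lower by -0.21, -0.11 and -0.13. The APOE4D calls of Gad2 and Slc17a7 were lost in 9 and 12 of 18 alternative settings, and the APOE2 call of Slc17a7 in 11. Their part in the Serpina3n levels was not tested.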
